A study of Mus musculus with 6 samples.

Results

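The aminoacyl-tRNA synthetase genes are 36 nuclear genes, taken as a list of names: 20 whose enzymes charge tRNAs in the cytosol and 16, with symbols ending in 2, whose enzymes charge tRNAs in mitochondria. All 36 were listed in each of the 3 deposited count tables, among 14548 gene symbols that the tables share. They were measured in germinal centre (GC) B cells sorted from the spleens of mice given NP-haptenated antigen in alum, by droplet-based single-cell sequencing of transcript 5′ ends. The Day14 group held 2 libraries of wild-type B220+ CD95hi GL7hi IgD- cells taken at day 14, and the Day7 group held 2 libraries of wild-type B220+ CD38- GL7hi cells taken at day 7. A further pair of libraries came from irradiated mice rebuilt with wild-type bone marrow and sorted at day 14 with the CD95hi GL7hi IgD- gate. The KO hosts were Ccl19Cre/+ Il4raf/f and the control hosts Il4ra+/+, with 1 library each. Cre under the Ccl19 promoter deletes floxed Il4ra, which encodes a chain of the IL-4 receptor, in host cells where that promoter is or was active, and the sorted B cells descend from unmodified donor marrow, so no transcript measured here checks the host genotype. The labels do not say whether replicate libraries came from separate animals or from pools, so the p-values below measure only the spread between these libraries.

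Each synthetase joins an amino acid to the tRNAs that read its codons, and so supplies the ribosome. In the cytosol, 8 of the synthetases (those encoded by Eprs, Iars, Lars, Qars, Mars, Kars, Rars and Dars) sit in the multisynthetase complex, held by the scaffold proteins of Aimp1, Aimp2 and Eef1e1, while the other 12 genes encode free enzymes or the alpha and beta subunits of phenylalanyl-tRNA synthetase (Farsa and Farsb). When uncharged tRNAs build up, the kinase GCN2 slows translation and the transcription factor ATF4 is made, which binds C/EBP-ATF response elements (CAREs) at many cytosolic synthetase genes. GC B cells divide and mutate their receptors in the dark zone (DZ) and compete for T cell help in the light zone (LZ), where selected cells switch on Myc, a driver of cell growth.

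The promoters of 26 members were found in RefSeq (assembly GRCm38.p6), as windows from 250 bases before to 50 bases after the gene start. They were searched on both strands for the core of the CARE, TGATGNAA, and for the E-box that MYC binds best, CACGTG. The CARE core was present in 5 of the 26 windows, against 3.97% of 32851 windows of all genes, and the E-box in 5 of the 26, against 7.15%. Of the 13 cytosolic members known as ATF4 targets, 7 had a window, and 5 of these held the CARE core (Aars, Gars, Iars, Tars and Yars) and 3 the E-box (Aars, Iars and Tars). In Aars, Iars and Tars the motifs did not overlap each other. The 150 bases before the start are shown for the 5 members with either motif in that stretch, because these members return in the comparisons below. Capitals mark the CARE core or its reverse complement, or the E-box.
Aars, chr8:111033692-111033841, plus strand, E-box then CARE core: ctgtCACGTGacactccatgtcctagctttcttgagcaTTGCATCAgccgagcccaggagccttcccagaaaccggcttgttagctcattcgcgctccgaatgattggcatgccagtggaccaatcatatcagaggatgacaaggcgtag
Gars, chr6:55037851-55038000, plus strand, CARE core: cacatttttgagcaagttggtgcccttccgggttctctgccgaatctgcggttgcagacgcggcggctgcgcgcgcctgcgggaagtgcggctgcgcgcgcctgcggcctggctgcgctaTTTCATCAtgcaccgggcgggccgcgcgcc
Tars, chr15:11399659-11399808, minus strand, CARE core: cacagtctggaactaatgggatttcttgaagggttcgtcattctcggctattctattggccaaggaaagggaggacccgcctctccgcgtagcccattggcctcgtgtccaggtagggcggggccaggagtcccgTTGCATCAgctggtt
Iars, chr13:49681980-49682129, plus strand, E-box: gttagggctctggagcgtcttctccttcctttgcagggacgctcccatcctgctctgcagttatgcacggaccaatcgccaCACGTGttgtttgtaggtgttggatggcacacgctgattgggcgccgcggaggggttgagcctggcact
Farsb, chr1:78488898-78489047, minus strand, E-box: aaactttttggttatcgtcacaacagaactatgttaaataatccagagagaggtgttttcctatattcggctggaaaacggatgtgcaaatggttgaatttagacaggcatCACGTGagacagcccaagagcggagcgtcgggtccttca
In Aars the E-box began 146 bases and the CARE core 112 bases before the start, with a second CARE core 10 bases after the start. Iars and Yars held their CARE core 8 and 4 bases after the start, and Tars and Ears2 an E-box 20 and 22 bases after it. A match of letters is a description of the window and not evidence that a factor binds there.

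The 6 libraries held 38651 cells, from 1012 to 10648 per library, with 20339933 to 62202828 UMIs (unique molecular identifiers, 1 for each captured transcript) and a median of 3178.5 to 18233.5 UMIs per cell. Day7 cells were the deepest and Day14 cells the shallowest. Barcodes shared between any pair of libraries made up 0.0988% to 1.54% of the smaller library. The 7 GC B cell markers summed to 5496 to 6767 counts per 1000000 UMIs (CPM) per library, with Bcl6, the GC master regulator, at 37.5 to 146 CPM. The 5 T cell markers summed to 71.5 to 105 CPM, nearly all from Cd2, while Cd3e stood at 0.751 CPM or less and at 0 in Day14 replicate 2. The stromal markers measured in all tables summed to 0.150 to 0.635 CPM, and the erythroid ones to 61.3 to 650 CPM, highest in Day7 replicate 1. The authors' zone, cell cycle and cluster calls were used as deposited, and how they were made is not given in the sources used here.

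All 36 members had UMIs in all 6 libraries. The lowest was Wars2, the mitochondrial tryptophanyl-tRNA synthetase, with 88 to 264 UMIs or 3.37 to 5.20 CPM per library, and the highest was Lars2, the mitochondrial leucyl-tRNA synthetase, at 418 to 2868 CPM. The median member lay at 38.4 to 44.0 CPM, and 26 to 28 members reached 20 CPM. Counts of transcript ends carry no length scaling and depend on how each end is captured, so levels of different genes are not ranked further. In GENCODE M21 (GRCm38) the members lay on 15 chromosomes, for example Wars2 at chr3:99141068-99239186 (plus strand), Vars at chr17:35000987-35016322 (plus), Lars2 at chr9:123366927-123462666 (plus) and Farsb at chr1:78417975-78488897 (minus), with 8 of them overlapping another gene on the same strand and 17 on the other strand. Whether counting used the strand is not given in the sources used here, so reads of Hars and Hars2, which overlap on opposite strands, and of Mars and Ddit3, which do too, cannot be told apart with certainty.

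**Figure D1:**
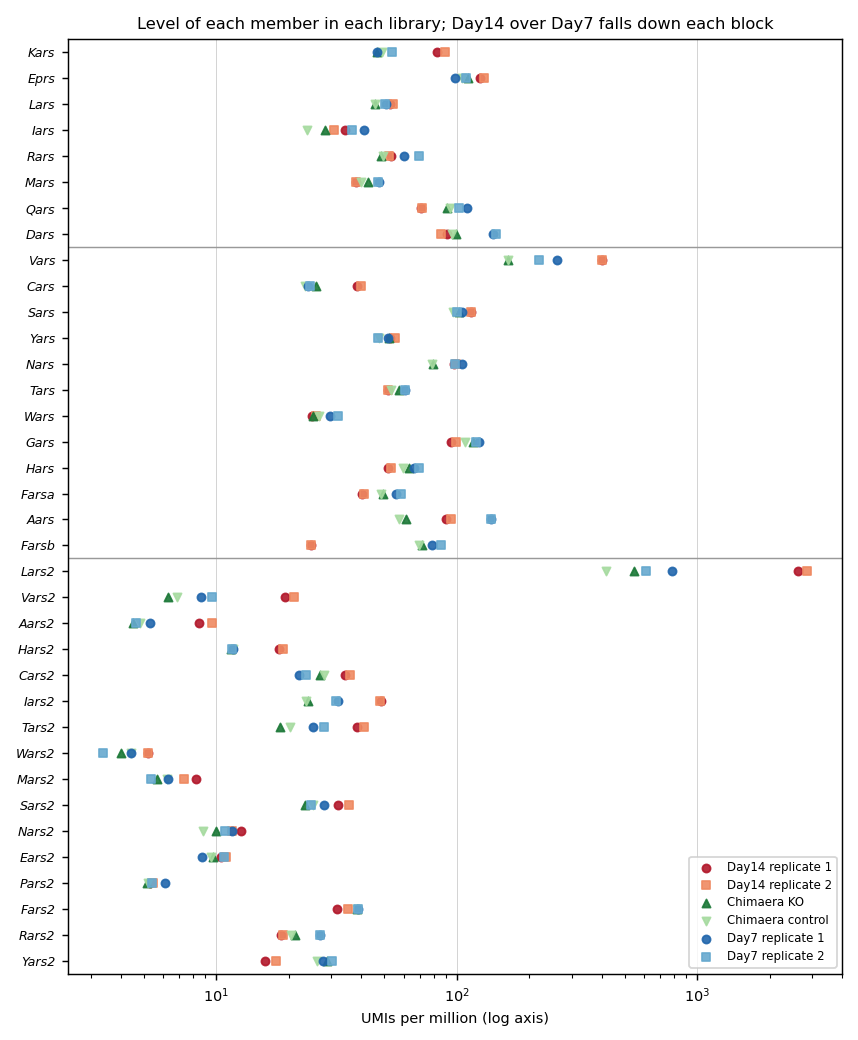
Level of each of the 36 members in each of the 6 libraries, in CPM on a log axis, with 1 point for each library and members in blocks of complex, other cytosolic and mitochondrial genes. Lars2 stands at 418 to 2868 CPM and Wars2 at 3.37 to 5.20 CPM, and the points of most members lie close together, with Lars2, Vars and Kars high and Farsb low in the Day14 libraries.

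LZ cells were compared with DZ cells within each of the 6 libraries. More synthetases were higher than lower in LZ cells: 15 of 36 members rose and 7 fell at an adjusted p under 0.05 (edgeR quasi-likelihood test, Benjamini-Hochberg), and 14 did not pass. Among all 11818 genes tested, 30.1% were called higher and 27.5% lower, 57.6% in all. The median log2 change of the members was 0.07, against 0.01 for all genes. The summed level of the 20 cytosolic members was higher in LZ cells of 3 libraries and lower in 3. Its log2 ratio was 0.12 and 0.19 in the Day7 libraries, -0.01 and 0.03 in the Day14 libraries, and -0.006 in both the KO and the control library. The sum of the 15 mitochondrial members without Lars2 was higher in 5 of 6 libraries (log2 -0.01 to 0.16). The tryptophanyl-tRNA synthetases of both compartments (Wars, Wars2) and the isoleucyl enzyme of the complex (Iars) were among those that rose, and the valyl, alanyl and lysyl enzymes (Vars, Aars, Kars) fell.

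Of the 8 complex members, 3 rose and 2 fell. Iars had a lowest, median and highest level of 25.2, 39.1 and 51.8 CPM in LZ cells, against 23.1, 29.3 and 35.2 CPM in DZ cells of the 6 libraries. The ranges overlapped between libraries, but within every library the LZ value was the higher (log2 0.33, SE 0.05, adjusted p = 9.4e-05). Kars, which encodes the lysyl enzyme of both compartments, had 41.8, 49.3 and 86.8 CPM in LZ cells, against 48.1, 52.9 and 90.6 CPM in DZ cells. It was lower in LZ cells in 5 of 6 libraries (log2 -0.18, SE 0.04, adjusted p = 0.0016), with Day7 replicate 2 the exception. Lars (log2 0.22) and Eprs (log2 0.16), which encodes the joined glutamyl and prolyl enzymes, also rose, and Qars (log2 -0.12), the glutaminyl enzyme, also fell.

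Of the 12 other cytosolic members, 7 rose and 3 fell. Wars reached 28.5, 30.5 and 40.9 CPM in LZ cells, against 23.3, 24.3 and 27.0 CPM in DZ cells. Every LZ value lay above every DZ value (log2 0.34, SE 0.05, adjusted p = 0.00011). Vars had 136, 224 and 356 CPM in LZ cells, against 176, 251 and 426 CPM in DZ cells. The Day14 libraries were high and the chimaera libraries low in both zones, and LZ was the lower zone in all 6 (log2 -0.32, SE 0.03, adjusted p = 7.1e-06). Aars, the alanyl enzyme, had 49.6, 87.4 and 144 CPM in LZ cells, against 62.9, 95.2 and 140 CPM in DZ cells. It was lower in LZ cells in 5 of 6 libraries and higher in Day7 replicate 2 (log2 -0.19, SE 0.05, adjusted p = 0.0043). Tars, the threonyl enzyme (log2 0.26), was among the other members that rose, and Hars, the histidyl enzyme (log2 -0.15), fell.

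Of the 16 mitochondrial members, 5 rose and 2 fell. Wars2 had 4.99, 6.05 and 7.68 CPM in LZ cells, against 2.48, 3.53 and 4.62 CPM in DZ cells. The ranges did not overlap, and the change was the largest of any member (log2 0.79, SE 0.10, adjusted p = 3.4e-05). Ears2, the glutamyl enzyme that also starts the route to mitochondrial glutaminyl-tRNA, had 9.90, 12.1 and 14.2 CPM in LZ cells, against 7.08, 9.11 and 9.63 CPM in DZ cells, again without overlap (log2 0.37, SE 0.07, adjusted p = 0.00088). Fars2, the phenylalanyl enzyme, had 31.2, 35.1 and 36.8 CPM in LZ cells, against 31.9, 40.2 and 40.7 CPM in DZ cells. It was lower in LZ cells in 5 of 6 libraries (log2 -0.18, SE 0.04, adjusted p = 0.0011). Yars2 (log2 0.32), Rars2 (log2 0.30) and Nars2 (log2 0.26), the tyrosyl, arginyl and asparaginyl enzymes, rose in LZ cells, while Sars2, the seryl enzyme (log2 -0.13), fell.

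**Figure D2:**
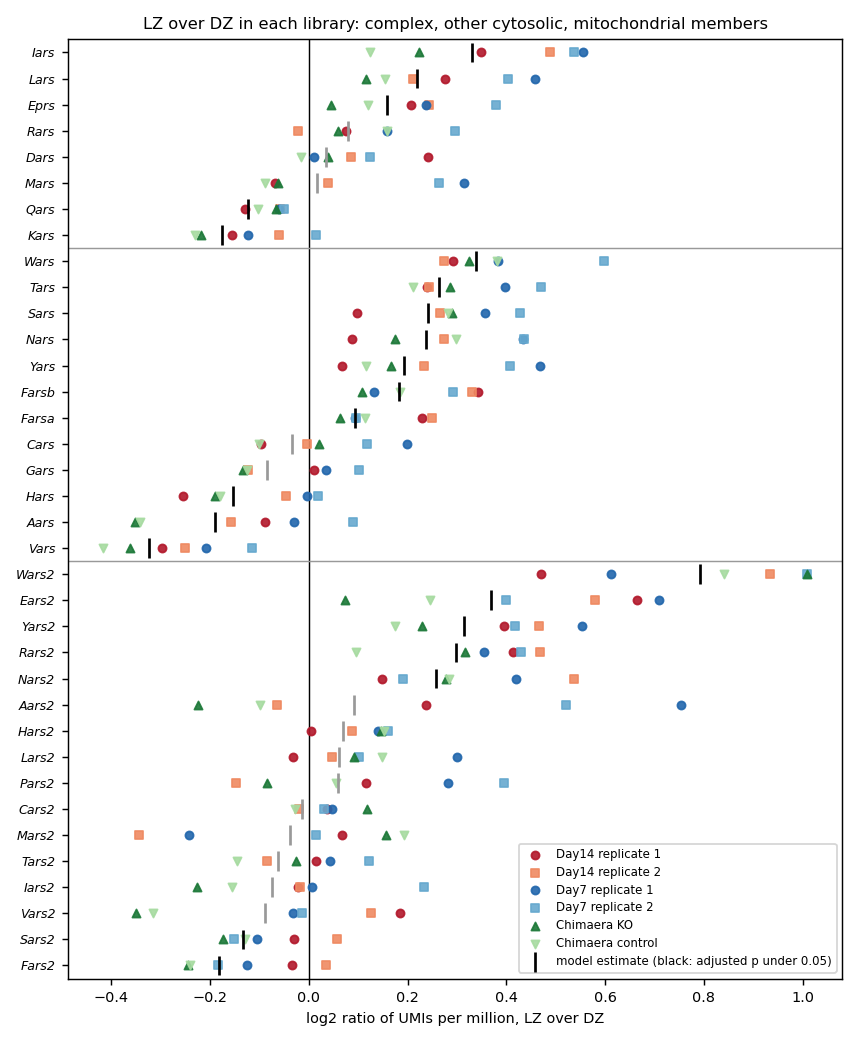
Log2 ratio of CPM in LZ over DZ cells for each member in each of the 6 libraries (points), with the model estimate as a vertical bar, black where the adjusted p was under 0.05. Wars2 lies furthest to the right in the model estimate (0.79) and Vars furthest to the left (-0.32), with the points of all 6 libraries on the same side of 0 for both.

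LZ cells were shallower than DZ cells, with median UMIs per cell of 2547 to 15336 in LZ and 3733 to 20954 in DZ. With each cell thinned to 1000 UMIs, 9 members rose, 3 fell and no named member changed sign. The T cell markers summed to 85.5 to 129 CPM in LZ cells, against 64.4 to 93.2 CPM in DZ cells, and the GC B cell markers to 6199 to 7461 CPM in LZ cells, against 5039 to 6266 CPM in DZ cells. The erythroid markers summed to 59.6 and 63.4 CPM in LZ cells, against 988 and 301 CPM in DZ cells of the Day7 libraries, and to 183 and 173 CPM in LZ cells, against 135 and 137 CPM in DZ cells of the Day14 libraries. The part of these differences in the member results was not tested.

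Since the zones can differ in cell cycle phase, they were also compared within each cell cycle phase. In G1, 10 members rose and 4 fell (of all genes 20.5% were called higher and 19.4% lower, 40% in all). In S, 16 rose and 2 fell (17.9% and 18.9%, 36.9% in all), and in G2M 15 rose and 2 fell (13.5% and 15.7%, 29.2% in all). The median log2 change of the members was 0.04 in G1, 0.17 in S and 0.31 in G2M, and that of all genes -0.00, -0.00 and -0.06. Low counts limit the G2M values. LZ cells called G2M in Day7 replicate 1 gave no UMI of Aars2, Cars2, Hars2, Vars2 or Wars2. Those in Day14 replicate 1 gave none of Pars2 or Wars2. Between libraries the G2M log2 ratio of Farsa ran from -1.40 to 1.02, while that of Kars ran from 0.13 to 0.39. The LZ excess of Iars was called in all 3 phases (log2 0.41, 0.47 and 0.60; the G2M call was lost without Day7 replicate 2, adjusted p = 0.084), as were those of Tars (0.29, 0.30 and 0.73) and Wars (0.24, 0.41 and 0.70). Whether the zone difference itself differed between phases was not tested. Thinned to 1000 UMIs, 2 members were called higher in G1, 3 in S and 2 in G2M, and DESeq2 called 5 higher in G1 at full depth.

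Several zone calls did not recur within phases. The lower LZ level of Aars passed in no phase (log2 -0.05 in G1, 0.04 in S and 0.12 in G2M, with adjusted p of 0.61, 0.58 and 0.49). Wars2 was called higher in LZ cells in S (log2 0.67, SE 0.17, adjusted p = 0.0033), but not in G1 (log2 0.44, adjusted p = 0.07) or G2M (log2 -0.11, SE 0.56, adjusted p = 0.91). Ears2 was called in G2M (log2 1.15, SE 0.27, adjusted p = 0.00029), but not in G1 (log2 -0.14, adjusted p = 0.38). Vars was lower in LZ cells in G1 (log2 -0.32) and S (log2 -0.24), while its G2M estimate of -0.19 had an adjusted p of 0.13. Kars fell in G1 (log2 -0.22, SE 0.06, adjusted p = 0.0047) and did not pass in S (log2 -0.01) or G2M (log2 0.25). Rars2 was the only mitochondrial member called in G1 (log2 0.25), and it and Wars lost their G1 calls when single libraries were left out.

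The 13 cytosolic members known as ATF4 targets and the 7 others were counted apart. In the LZ against DZ comparison 8 of the 13 targets rose and 2 fell (median log2 0.19), against 2 higher and 3 lower of the 7 others (median log2 0.03). Within G1 the counts were 8 higher and 1 lower of the 13 targets (median log2 0.21), against 1 higher and 3 lower of the 7 others (median log2 -0.06). The summed level of the 13 targets had log2 ratios of LZ over DZ of 0.16 and 0.23 in the Day7 libraries. Elsewhere it was near equality, at -0.02 and 0.02 (Day14), 0.001 (KO) and -0.002 (control). Within G1 it gave 0.20 and 0.22 in Day7, -0.11 and 0.02 in Day14, -0.05 in the KO and -0.04 in the control library. That of the 7 others was lower in LZ cells called G1 of all 6 libraries. The difference between the lists, which were chosen with earlier results of these data known, was not tested. Of the 29 amino acid response genes, 25 were tested, and 16 rose and 1 fell in LZ cells with a median log2 of 0.46. The largest rises were those of Ddit4 (log2 1.42), an inhibitor of the growth kinase mTORC1, Chac1 (log2 1.38), a glutathione-degrading enzyme, Pycr1 (log2 1.32), of proline synthesis, and Gpt2 (log2 0.98), an alanine transaminase. Psat1, of serine synthesis, fell (log2 -0.53). Of the 17 partner genes 3 rose, the tRNA exporter Xpot (log2 0.49), the complex scaffold Eef1e1 (log2 0.37) and Gatc (log2 0.24), a subunit of the mitochondrial amidotransferase, and 2 fell, the alanyl editing factor Aarsd1 (log2 -0.35) and Qrsl1 (log2 -0.18), another amidotransferase subunit.

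Cells called S or G2M were compared with cells called G1, in a fit over the 3 phases of all 6 libraries. In S phase, 18 members rose and 6 fell, against 29.1% and 34.2% of 11429 genes tested (63.3% in all), with a member median of 0.11 and an all-gene median of -0.04 on the log2 scale. In G2M, 11 rose and 11 fell, against 28.6% and 31.6% of the same genes (60.2% in all), with medians of -0.01 for the members and -0.03 for all genes. The alanyl and glycyl enzymes Aars and Gars led the cytosolic rise in S phase, and Wars2 was the most reduced member in both phases.

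In S phase, 5 of 8 complex members rose and 1 fell. Kars (log2 0.38) and Mars, the methionyl enzyme (log2 0.37), were the named complex members that rose, and Qars fell (log2 -0.16). Of the 12 other cytosolic members 7 rose and 1 fell. Aars had 66.4, 102 and 166 CPM (lowest, median and highest library) in S cells, against 45.5, 79.8 and 119 CPM in G1 cells (log2 0.49, SE 0.04, adjusted p = 3.7e-09). Gars, which encodes the glycyl enzyme of both compartments, had 114, 134 and 146 CPM in S cells, against 83.8, 96.6 and 115 CPM in G1 cells (log2 0.47, SE 0.04, adjusted p = 2.1e-08). Both were higher in S cells of all 6 libraries, although the ranges overlapped. Yars, the tyrosyl enzyme, rose as well (log2 0.32), and Wars fell (log2 -0.19).

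Of the 16 mitochondrial members 6 rose and 4 fell in S phase. Pars2, the prolyl enzyme, had 5.74, 6.95 and 7.96 CPM in S cells, against 3.19, 5.10 and 6.0 CPM in G1 cells (log2 0.52, SE 0.13, adjusted p = 0.0017). Cars2, the cysteinyl enzyme, had 25.1, 31.4 and 41.9 CPM in S cells, against 21.2, 25.7 and 32.1 CPM in G1 cells (log2 0.39, SE 0.05, adjusted p = 5.5e-07). Both were higher in S cells of every library. Wars2 had 3.50, 3.87 and 4.39 CPM in S cells, against 4.77, 5.79 and 8.62 CPM in G1 cells, with no overlap (log2 -0.60, SE 0.11, adjusted p = 7.2e-05). Hars2, the histidyl enzyme, had 9.93, 10.7 and 14.5 CPM in S cells, against 12.5, 12.7 and 22 CPM in G1 cells, and was lower in S cells of all 6 libraries (log2 -0.31, SE 0.07, adjusted p = 0.0006). The other mitochondrial members that fell were Ears2, at 8.29, 10.3 and 11.4 CPM in S cells, against 10.3, 11.7 and 14.9 CPM in G1 cells (log2 -0.20, SE 0.08, adjusted p = 0.041, lost without some single libraries), and Lars2. Lars2 had 397, 588 and 2866 CPM in S cells, against 472, 874 and 2941 CPM in G1 cells, and was lower in 5 of 6 libraries (log2 -0.21, SE 0.07, adjusted p = 0.011). Without Day7 replicate 1 its adjusted p was 0.072. Its difference was largest in the Day7 libraries (log2 -0.71 and -0.41) and near 0 in the Day14 libraries (log2 0.01 and -0.04).

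In G2M, Aars had 62.1, 96.1 and 138 CPM, against 45.5, 79.8 and 119 CPM in G1 cells (log2 0.37, SE 0.04, adjusted p = 2.2e-07). Vars had 174, 250 and 439 CPM in G2M cells, against 148, 234 and 359 CPM in G1 cells (log2 0.28, SE 0.03, adjusted p = 1.1e-06). Both were higher in G2M cells of all 6 libraries. Hars, at 50.4, 65.0 and 70.7 CPM in G2M cells, against 44.5, 53.8 and 64.6 CPM in G1 cells (log2 0.26, SE 0.04, adjusted p = 3.1e-05), and Tars2, the mitochondrial threonyl enzyme, at 17.8, 27.6 and 43.3 CPM in G2M cells, against 17.6, 24.7 and 35.4 CPM in G1 cells (log2 0.26, SE 0.05, adjusted p = 9e-05), rose too. Mars (log2 0.24), Kars (log2 0.23), Cars, the cytosolic cysteinyl enzyme (log2 0.22), and Fars2 (log2 0.20) completed the named genes that rose.

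The members that fell in G2M were 6 mitochondrial, 4 free cytosolic and 1 complex member. Wars2 had 2.20, 3.19 and 4.16 CPM in G2M cells, against 4.77, 5.79 and 8.62 CPM in G1 cells (log2 -0.89, SE 0.11, adjusted p = 9.9e-07). Ears2 had 6.83, 7.53 and 9.50 CPM in G2M cells, against 10.3, 11.7 and 14.9 CPM in G1 cells (log2 -0.55, SE 0.08, adjusted p = 1.7e-05). Neither range in G2M cells overlapped that in G1 cells. Nars2 had 7.44, 9.69 and 11.2 CPM in G2M cells, against 9.24, 12.4 and 13.8 CPM in G1 cells (log2 -0.28, SE 0.06, adjusted p = 0.00059). Sars, the cytosolic seryl enzyme, had 83.3, 87.6 and 108 CPM in G2M cells, against 105, 114 and 122 CPM in G1 cells (log2 -0.26, SE 0.05, adjusted p = 7.8e-05). Both were lower in G2M cells of every library. Rars2 (log2 -0.21), Wars (log2 -0.20), Lars2 (log2 -0.20) and Yars2 (log2 -0.18) fell by less. Of these, Wars (log2 -0.16 in both cases) and Lars2 (log2 -0.16 and -0.18) lost their calls without Day7 replicate 2 and without the control library, and Yars2 (log2 -0.13 and -0.14) without Day7 replicate 1 and without Day14 replicate 1.

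**Figure D3:**
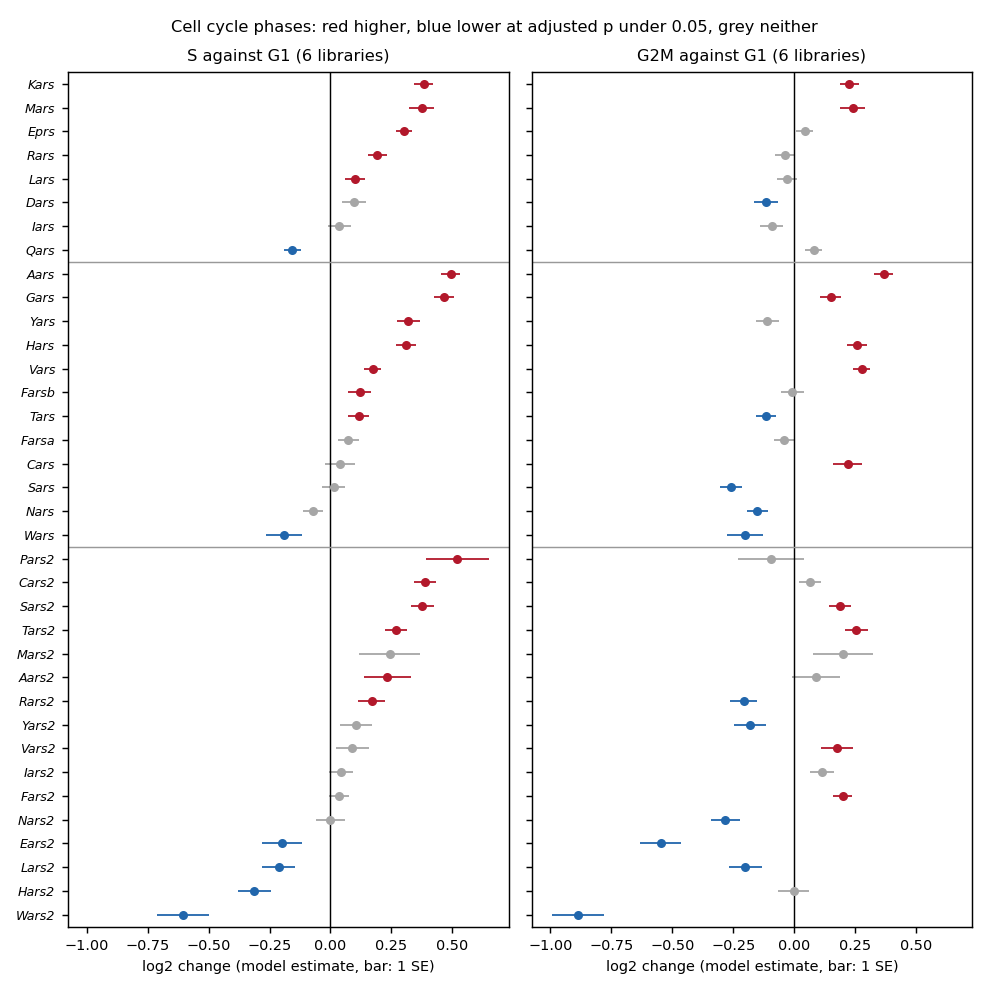
Model estimate of the log2 change of each member in S against G1 cells (left) and G2M against G1 cells (right) over the 6 libraries, with bars of 1 SE, red where higher and blue where lower at an adjusted p under 0.05, and grey otherwise. Wars2 lies furthest to the left in both panels (-0.60 in S and -0.89 in G2M), and Aars lies right of 0 in both (0.49 and 0.37).

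S and G2M cells were deeper than G1 cells, with median UMIs of 3786.5 to 21047 in S, 3940 to 22455 in G2M and 2461 to 13875 in G1. Thinned to 1000 UMIs, 8 members rose in S and 4 in G2M, and no named member changed sign. Of the 17 partner genes, 8 rose and none fell in S phase, led by Aarsd1 (log2 0.93), Aimp2 (log2 0.54), the mitochondrial elongation factor Tsfm (log2 0.37) and Eef1g (log2 0.27), a subunit of cytosolic elongation factor 1. In G2M 5 rose, led by Aarsd1 (log2 0.69) and Qrsl1 (log2 0.32), and 2 fell, Xpot (log2 -0.41) and Eef1a1 (log2 -0.16). Of the 25 amino acid response genes tested, 10 rose in S, led by Psat1 (log2 0.86), Mthfd2 (log2 0.69) and Shmt2 (log2 0.67), of serine and one-carbon metabolism, and 8 fell, led by Ddit4 (log2 -1.63), Chac1 (log2 -0.92) and Ddit3 (log2 -0.63), a stress-induced transcription factor. In G2M 6 rose and 13 fell.

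LZ cells with at least 1 Myc UMI were set against LZ cells with none in each library. Of the 116 to 606 LZ cells with a Myc UMI per library, all were kept, out of 454 to 4057 LZ cells. Cytosolic synthetases were mostly higher in the cells with a Myc UMI: of all members 17 rose and 2 fell, against 18.4% and 18.4% of 10772 genes tested (36.8% in all), with a member median of 0.19 and an all-gene median of -0.03 on the log2 scale. The rise covered 6 of 8 complex members, 8 of 12 other cytosolic members and 3 of 16 mitochondrial ones. No cytosolic member was called lower, although Qars was lower in 5 of 6 libraries (mean log2 -0.10). The summed level of the 20 cytosolic members was higher in Myc-UMI cells of all 6 libraries (log2 0.11 to 0.30), whereas that of the 16 mitochondrial members, most of it Lars2, was lower in 5 of 6 and that of all 36 higher in 3 and lower in 3.

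Eprs had 126, 140 and 193 CPM in LZ cells with a Myc UMI, against 96.1, 111 and 140 CPM in those without (log2 0.37, SE 0.05, adjusted p = 4e-05). Rars, the arginyl enzyme of the complex, had 55.3, 64.8 and 91.4 CPM with a Myc UMI, against 47.3, 52.2 and 68.3 CPM without (log2 0.37, SE 0.07, adjusted p = 0.00055). Yars2 had 24.1, 33.8 and 43.6 CPM with a Myc UMI, against 17.6, 27.8 and 31.9 CPM without (log2 0.38, SE 0.08, adjusted p = 0.0016). Each was higher in Myc-UMI cells of all 6 libraries, as was Pars2, at 5.73, 6.78 and 8.02 CPM with a Myc UMI, against 4.39, 5.18 and 6.29 CPM without (log2 0.40, SE 0.14, adjusted p = 0.031). Rars2 (log2 0.35), Gars (log2 0.35), Kars (log2 0.33) and Tars (log2 0.33) rose in all 6 libraries as well. Of the 13 ATF4 targets 8 rose (median log2 0.24), and of the 7 other cytosolic members 6 (median log2 0.23).

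The members lower in Myc-UMI cells were both mitochondrial. Lars2 had 398, 525 and 3087 CPM with a Myc UMI, against 455, 919 and 2904 CPM without, and was lower in 5 of 6 libraries (log2 -0.41, SE 0.09, adjusted p = 0.0015). Hars2 had 9.13, 12.2 and 16.6 CPM with a Myc UMI, against 12.2, 13.5 and 20.2 CPM without, also lower in 5 of 6 (log2 -0.30, SE 0.10, adjusted p = 0.033). The Hars2 and Pars2 calls were lost when some single libraries were left out. The ribosomal RNA-like transcripts Gm42418 (log2 -0.33) and AY036118 (log2 -0.19) were lower as well. Of the partners 10 rose and none fell, led by Eef1e1 (log2 0.85) and Aimp2 (log2 0.55). Of the amino acid response genes 9 rose, led by the amino acid transporter Slc7a5 (log2 0.73), and 2 fell, Ddit4 (log2 -0.66) and Slc3a2 (log2 -0.15).

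Markers moved with this split too. GC B cell markers summed to 5054 to 6683 CPM in LZ cells with a Myc UMI, against 6644 to 7973 CPM in those without, T cell markers to 67.6 to 119 CPM, against 89.3 to 142 CPM, and myeloid markers to 109 to 217 CPM, against 144 to 320 CPM. Each of these sums was lower in Myc-UMI cells of every library, and their part in the member results was not tested. Over whole libraries the myeloid markers summed to 134 to 216 CPM, most of it Cst3 (106 to 202 CPM). The T cell sum was nearly all Cd2, so these sums rest mainly on 1 gene each.

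The Myc comparison depends on depth, since a deeper cell is more likely to give a Myc UMI. Median UMIs per cell were 4277 to 21072.5 in LZ cells with a Myc UMI and 2433 to 12896 in those without. Thinned to 1000 UMIs, with the split made again, 0 members were called in either direction, against 215 of all genes, and the member median was 0.09. Rars2 then stood at a log2 of -0.03. Within LZ cells called G1, at full depth, 12 members were called higher and 1 lower. The number of all genes called in that setting is given with the alternatives below, without a share. That setting was not thinned, so it does not bear on the calls lost by thinning.

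The deposited clusters were drawn on the same cells and genes, so members in a cluster are given as values with no test, for clusters of at least 50 cells in a library. A cluster whose cells carried raised levels of all 10 markers of MYC-high selected cells was present in each table: Day7 cluster 2, Day14 cluster 5 and Chimaera cluster 6. In each of them 30 of 36 members were higher than in the other clusters of the same library, in both libraries of the table. Of all genes with counts in both libraries, 37.9% (Day7), 38.7% (Day14) and 34.1% (Chimaera) were higher in both, and 41.4%, 41% and 47.3% lower in both. The median log2 ratio of the members was 0.48, 0.46 and 0.45. The 20 cytosolic members summed to 2165 CPM in the MYC-high-like cluster, against 1622 CPM in the other clusters of Day7 replicate 1, and to 2061 against 1556 CPM in Day7 replicate 2. The sums were 2263 against 1580 CPM and 2216 against 1602 CPM in the Day14 libraries, 1823 against 1341 CPM in the KO library and 1730 against 1297 CPM in the control library.

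Eprs was among the most raised members of these clusters in all 3 tables. It stood at 159 and 155 CPM in Day7 cluster 2, against 88.4 and 96.1 CPM in the other clusters of the 2 libraries. In Day14 cluster 5 it stood at 241 and 234 CPM, against 116 and 121 CPM, and in Chimaera cluster 6 at 178 CPM in the KO and 171 CPM in the control library, against 105 and 99.1 CPM. Yars2 likewise stood at 43.9 and 46.1 CPM against 25.2 and 25.6 CPM in Day7, at 31.3 and 33.0 CPM against 14.8 and 16.3 CPM in Day14, and at 44.8 and 42.2 CPM against 27.3 and 24.5 CPM in the KO and control libraries. Lars2, Qars, Vars and Fars2 were lower in these clusters in both libraries of every table. Fars2 stood at 19.8 and 27.7 CPM in Day14 cluster 5, against 32.7 and 35.8 CPM elsewhere. The 15 mitochondrial members without Lars2 summed to 283 to 389 CPM in the MYC-high-like clusters of the 6 libraries, against 234 to 316 CPM in the other clusters.

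**Figure D4:**
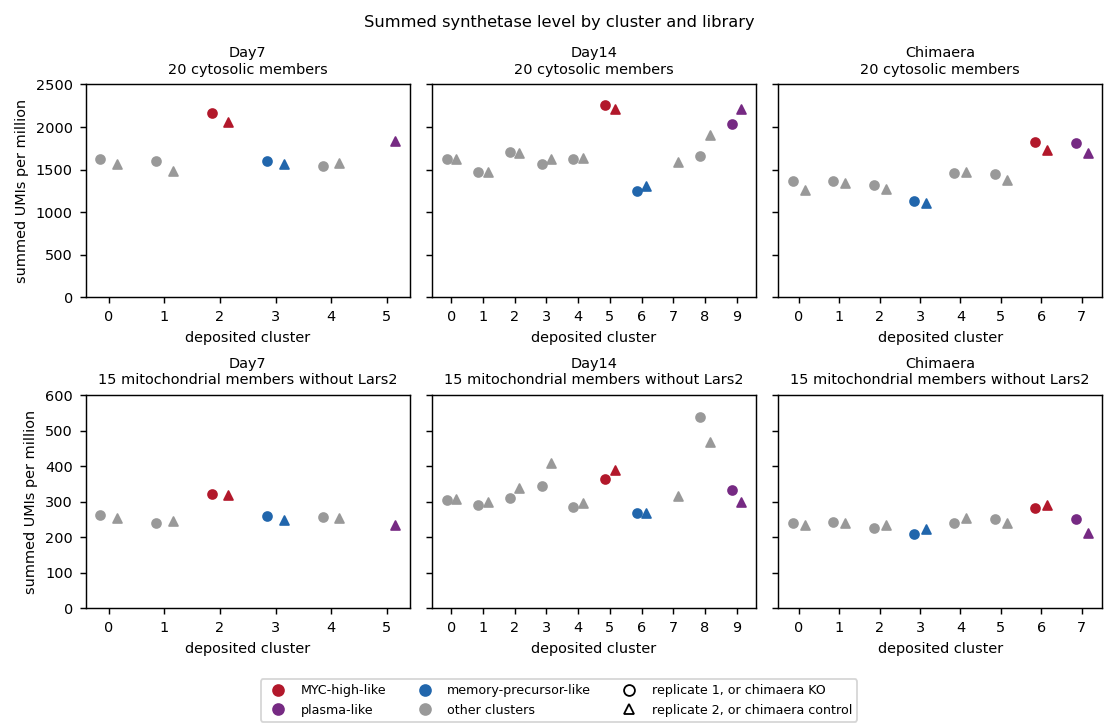
Summed level of the 20 cytosolic members (upper row) and of the 15 mitochondrial members without Lars2 (lower row) in each deposited cluster of at least 50 cells, in CPM, with a point for each library of the Day7, Day14 and Chimaera tables. The cytosolic sum is high in the MYC-high-like clusters (1730 to 2263 CPM) and low in the memory-precursor-like ones of the Day14 and Chimaera tables (1108 to 1312 CPM), with 1597 and 1569 CPM in that of Day7.

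Plasma-like clusters, with 9 of 9 or 10 of 10 measured plasma cell markers raised, were small: 72 and 71 cells in the Day14 libraries, 136 in the KO and 288 in the control library, and 101 in Day7 replicate 2. They were led by Nars, the asparaginyl enzyme, at 243 and 191 CPM in Day14 cluster 9, against 96.2 and 98.2 CPM in the other clusters. In Chimaera cluster 7 Nars stood at 187 CPM in the KO and 200 CPM in the control library, against 77.4 and 73.8 CPM. Wars stood there at 64.5 and 55.8 CPM, against 24.5 and 25.4 CPM, and Yars at 104 and 102 CPM, against 51.4 and 45.1 CPM. In the Day14 cluster Sars stood at 200 and 283 CPM, against 113 CPM in the other clusters of both libraries. Across the members, 14 of 35 with counts were higher and 10 lower in both Day14 libraries, and 19 of 36 higher and 9 lower in both chimaera libraries, while 30.8% and 31.3% of all genes were higher in both and 40.1% and 49.3% lower in both. The 13 ATF4 targets summed to a log2 ratio of 0.45 and 0.52 over the other clusters in the Day14 libraries and 0.54 and 0.51 in the KO and control libraries. The 7 other cytosolic members gave -0.13, 0.08, 0.10 and 0.05 in the same libraries. Low counts limit these clusters, with 78 and 60 UMIs of Nars in the Day14 libraries.

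Memory-precursor-like clusters had all of their measured markers raised, 10 of 10 in Day14 cluster 6 and Chimaera cluster 3 and 9 of 9 in Day7 cluster 3, and more synthetases low than high. In Day14 cluster 6 (535 and 307 cells) 27 of 36 members were lower than in the other clusters of both libraries, and in Chimaera cluster 3 (945 KO and 1304 control cells) 27 of 36 again, against 47.2% and 54.4% of all genes. Higher in both libraries were 5 and 3 members, against 32.2% and 28.2% of all genes. The pattern was weaker in Day7 cluster 3 (288 and 344 cells), with 19 of 36 members lower and 7 higher in both libraries (median log2 -0.14), against 39.3% and 37.8% of all genes. Day7 cluster 3 also had all 4 erythroid markers raised (median log2 7.46) and 3 of 3 measured myeloid markers (median log2 2.59). Hbb-bs, Hba-a1 and Hba-a2 led its raised genes. The part of these transcripts in its synthetase values was not tested. Aars stood at 58.3 and 48.2 CPM in Day14 cluster 6, against 93.3 and 96.3 CPM elsewhere, and at 39.7 CPM in the KO and 36.7 CPM in the control library, against 65.3 and 62.3 CPM. Cars stood at 23.0 and 25.4 CPM, against 39.9 and 40.3 CPM, in the Day14 libraries. Wars2 ran the other way, at 9.48 and 6.02 CPM against 4.82 and 5.16 CPM in Day14, from 26 and 9 UMIs, and at 6.26 CPM in the KO and 7.96 CPM in the control library, against 3.62 CPM in both. Farsb stood at 37.2 and 34.1 CPM in Day14 cluster 6, against 23.7 and 24.2 CPM elsewhere.

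Lars2 varied between clusters apart from the other members. In Day14 cluster 3 it stood at 7461 and 8187 CPM, against 2382 and 2595 CPM in the other clusters. Over the 46 cluster and library values, its log2 ratio to the rest of the library had a Pearson correlation of 0.94 with that of Gm42418, a transcript from the ribosomal RNA repeat, while the other 35 members gave -0.43 to 0.49. These points share libraries and depth, 2 of them are the Day14 cluster 3 values, and no p-value is given.

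The Day14 libraries were compared with the Day7 libraries over all cells, with 2 libraries each. Cytosolic members were mostly lower at Day14 and mitochondrial members more often higher. Of the 36 members, 10 rose and 16 fell, against 34.9% and 33% of 11971 genes tested (67.9% in all), with medians of -0.09 and 0.04 on the log2 scale. The 20 cytosolic members had 3 higher and 13 lower (median log2 -0.46), and the 16 mitochondrial members 7 higher and 3 lower (median log2 0.25). The fits use trimmed-mean scaling, which set these log2 values 0.19 below those of plain CPM scaling, and under plain CPM scaling 0 of the 26 called members changed sign. The day cannot be told apart from the gate, the depth per cell, the gene annotation or the deposited cell filter, which all differ between the 2 tables. The share of mitochondrial transcripts differed as well, at 7.41% and 7.68% in the Day14 libraries, against 2.68% and 2.63% in the Day7 libraries. It was 3.005% in the KO and 3.05% in the control library. The part of this difference in the member results was not tested.

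Among complex members 1 rose and 5 fell. Kars rose to 82.3 and 89.2 CPM in the Day14 libraries, against 46.7 and 53.8 CPM in the Day7 libraries (log2 0.58, SE 0.10, adjusted p = 0.0025). Dars, the aspartyl enzyme, had 91.4 and 85.9 CPM in the Day14 libraries, against 141 and 145 CPM in the Day7 libraries (log2 -0.88, SE 0.07, adjusted p = 0.00011). Qars fell too (log2 -0.76). Of the other cytosolic members 2 rose, Vars (log2 0.55) and Cars (log2 0.50), and 8 fell. Farsb had 24.7 and 24.6 CPM in the Day14 libraries, against 78.8 and 86.1 CPM in the Day7 libraries, the largest fall of any member (log2 -1.93, SE 0.08, adjusted p = 2.6e-05). The gene of its partner subunit, Farsa, fell less (log2 -0.69). Farsb overlaps an unnamed gene on the same strand and Sgpp2 on the other. Aars had 90.5 and 94.4 CPM in the Day14 libraries, against 139 CPM in both Day7 libraries (log2 -0.77, SE 0.06, adjusted p = 0.0001), and Hars also fell (log2 -0.57).

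Among mitochondrial members, Lars2 had 2634 and 2868 CPM in the Day14 libraries, against 786 and 613 CPM in the Day7 libraries (log2 1.79, SE 0.12, adjusted p = 6.1e-05). Gm42418 (log2 2.05) and AY036118 (log2 1.85) rose in the same comparison, and their part in the Lars2 result was not tested. Vars2, the valyl enzyme, had 19.3 and 21.1 CPM in the Day14 libraries, against 8.66 and 9.57 CPM in the Day7 libraries (log2 0.95, SE 0.10, adjusted p = 0.00038). Aars2, the alanyl enzyme, had 8.50 and 9.57 CPM in the Day14 libraries, against 5.31 and 4.61 CPM in the Day7 libraries (log2 0.69, SE 0.14, adjusted p = 0.0056), a call lost without Day14 replicate 2. Hars2 (log2 0.48) and Cars2 (log2 0.42) also rose. Yars2 had 16 and 17.7 CPM in the Day14 libraries, against 27.8 and 30.3 CPM in the Day7 libraries (log2 -0.98, SE 0.09, adjusted p = 0.00023), and Rars2 fell (log2 -0.72). No Day14 value of these members overlapped a Day7 value.

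The chimaera libraries, also of day 14 and sorted with the Day14 gate, give a further view of the members called. Farsb stood there at 71.3 CPM in the KO and 69.5 CPM in the control library, and Lars2 at 544 and 418 CPM, closer to the Day7 than to the Day14 libraries. Of the 10 members higher at Day14, the chimaera mean was closer to the Day7 mean for all 10, and on the Day14 side of it for 2. Of the 16 members lower at Day14 it was closer to Day7 for 7 and closer to Day14 for 9, and on the Day14 side of the Day7 mean for all 16. The chimaera mean also lay below the Day7 mean for most members not called lower, among them Kars, Vars and Lars2. The side shared by all 16 is therefore not particular to the members that fell. Aars, at 61.4 CPM in the KO and 57.6 CPM in the control library, was lower than in either wild-type group. These are levels set across tables that were made separately, and no test was made.

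Of the 17 partners, 12 fell at Day14 and 1 rose. The falls were led by Eef1e1 (log2 -1.45), the elongation factors Eef1a1 (log2 -1.42) and Tsfm (log2 -1.35) and Eef2 (log2 -1.04), and Qrsl1 rose (log2 0.41). Of the 25 amino acid response genes tested 16 fell, led by Pycr1 (log2 -2.03), Psph (log2 -1.79), of serine synthesis, and Cth (log2 -1.62), of cysteine synthesis, and 5 rose, including Atf4 itself (log2 0.72).

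Whether the LZ against DZ difference itself changed between Day14 and Day7 was tested with an interaction term. Lars2 was the only member called (log2 -0.22, SE 0.05, adjusted p = 0.029), against 1.18% of 11478 genes called higher and 1.11% lower (2.29% in all). The interaction of Gm42418 was -0.24, and the Lars2 call was lost with DESeq2 and with another scaling. The median interaction of the members was -0.17, against -0.01 for all genes. The called amino acid response genes were Asns (log2 -0.86), which makes asparagine, Slc3a2 (log2 -0.56) and Phgdh (log2 -0.28). Asns and Slc3a2 were higher in LZ cells of all 4 libraries, by less at Day14, while Phgdh had a log2 ratio of LZ over DZ of -0.02 and -0.06 in the Day14 libraries, against 0.18 and 0.22 in the Day7 libraries.

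The KO and control chimaera libraries address the effect of Il4ra loss in Ccl19-lineage host cells on donor GC B cells, and with 1 library each there is no replicate check and no p-value. Of the 28 members at 20 CPM or more in either library, none passed the size rule of an absolute log2 ratio of at least 0.5 with an interval excluding 0, against 0.574% of 5055 genes higher and 0.969% lower (1.54% in all). The same rule took 0.282% of genes between the 2 Day14 libraries (0.15% higher and 0.133% lower) and 3.25% between the 2 Day7 libraries (2.32% higher and 0.928% lower). Ratios were small, with 20 of the 28 above 1 and 8 below, and a median log2 of 0.04. The exact binomial 95% intervals, which cover counting error only, lay above 0 for 13 and below 0 for 2, against 25.4% and 24.9% of all genes at 20 CPM or more. Such intervals also occurred between libraries of 1 group, above 0 for 2 and below 0 for 5 members in the Day14 pair (13.8% and 12.4% of all genes), and above 0 for 7 and below 0 for 5 in the Day7 pair (31% and 23.6%). Between the 2 Day14 libraries, 7 of 27 members were above 1 and 20 below, with a median log2 of -0.04, and between the 2 Day7 libraries 13 of 28 were above 1, with a median of -0.00.

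The largest ratio was that of Lars2, at 544 CPM in the KO library and 418 CPM in the control library (log2 0.38, interval 0.36 to 0.40). Its log2 ratio was 0.36 between the 2 Day7 libraries and -0.12 between the 2 Day14 libraries, so a difference of this size also occurred between libraries of 1 group. Iars followed, at 28.2 CPM in the KO and 23.9 CPM in the control library (log2 0.24, interval 0.14 to 0.34), with 0.17 and 0.16 for the Day7 and Day14 pairs. Cars stood at 25.8 CPM in the KO and 23.3 CPM in the control library (log2 0.15, interval 0.04 to 0.25), and Yars2 at 28.8 and 26.1 CPM (log2 0.14, interval 0.04 to 0.24). The smallest ratios were those of Tars2 at 18.4 CPM in the KO and 20.3 CPM in the control library (log2 -0.14, interval -0.26 to -0.02) and Sars2 at 23.4 and 25.3 CPM (log2 -0.12, interval -0.22 to -0.01). Wars (log2 -0.08) and Kars (log2 -0.07) had intervals that included 0.

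Summed, the 20 cytosolic members made up 1381 CPM in the KO and 1335 CPM in the control library (log2 0.05, interval 0.04 to 0.06). The 13 ATF4 targets stood at 912 CPM in the KO and 870 CPM in the control library (log2 0.07, interval 0.05 to 0.08), and the 7 other cytosolic members at a log2 ratio of 0.01 (interval -0.01 to 0.04). The 16 mitochondrial members stood at 782 and 657 CPM in the same libraries (log2 0.25), and without Lars2 at 238 and 239 CPM (log2 -0.01, interval -0.04 to 0.02). The cytosolic ratio was much the same in each zone, with log2 0.05 in LZ and 0.05 in DZ cells. Of the amino acid response genes, Ddit4 was past the size rule, at 26.2 CPM in the KO and 39.2 CPM in the control library (log2 -0.58, interval -0.67 to -0.49). Its log2 ratio was 0.33 for the Day7 pair and 0.09 for the Day14 pair. Cells called G1 made up 39.2% of the KO and 44.6% of the control library, and LZ cells 36.2% and 39.5%. The part of these shares in the Ddit4 ratio was not tested. Shmt2, of one-carbon metabolism, stood at 141 CPM in the KO and 113 CPM in the control library (log2 0.32, interval 0.27 to 0.36).

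**Figure D5:**
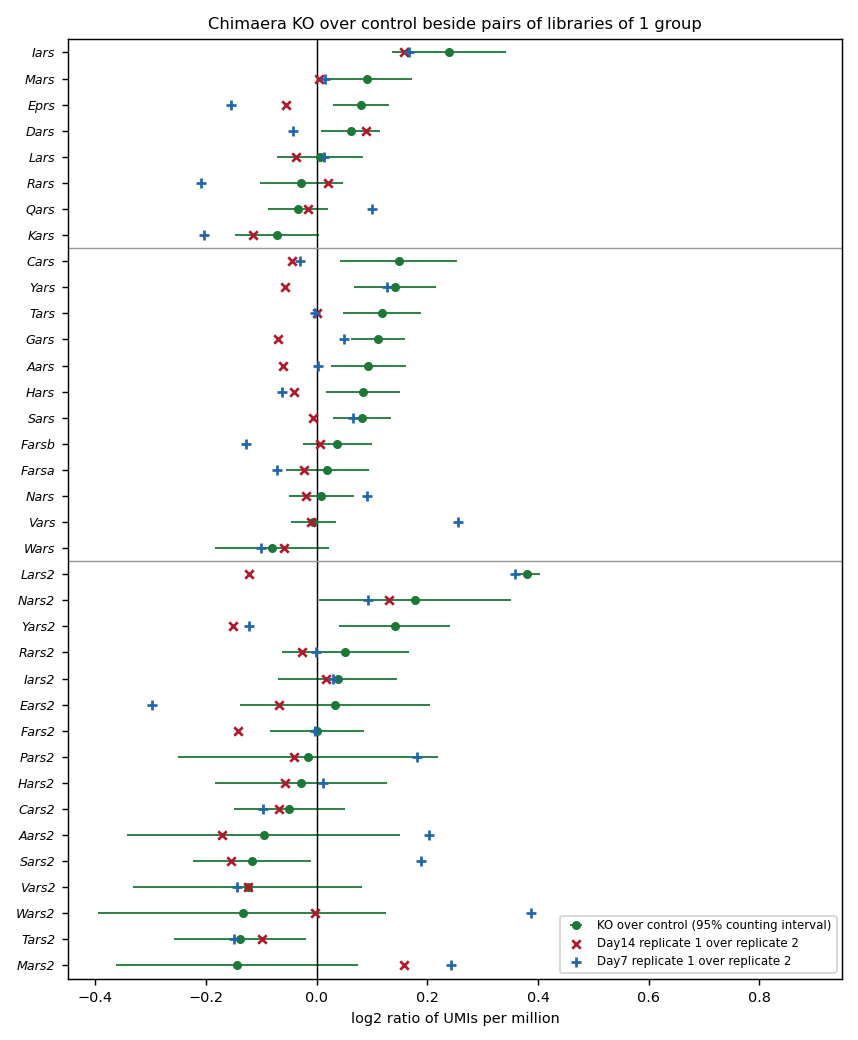
Log2 ratio of CPM in the chimaera KO over the control library for each of the 36 members (green, with the 95% counting interval), beside the ratios of the 2 Day14 libraries (red) and of the 2 Day7 libraries (blue). Among members at 20 CPM or more, the KO over control ratios run from -0.14 to 0.38, those of the Day14 pair from -0.15 to 0.16 and those of the Day7 pair from -0.21 to 0.36.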

How the data were processed

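The counts of UMIs per gene and cell that the authors deposited were used as given, in 3 tables of 6 libraries (Day14, Day7 and chimaera), with the authors' cluster, phase and zone calls; 1 column was not used. Cell Ranger, Seurat and mm10 are named in the submitters' processing notes, with no versions. The members and gene lists were chosen with earlier results of these data known. Counts were summed per library and call over the 14548 shared symbols, since cells are not replicates, and levels are counts per 1000000 (CPM) of that sum. Comparisons used the edgeR quasi-likelihood test (edgeR 4.0.16, R 4.3.3) with trimmed-mean scaling, its expression filter, a term for each library in comparisons within libraries, and Benjamini-Hochberg adjustment over all genes tested at 0.05. The SE is the absolute log2 change over the square root of F. DESeq2 1.42.0 was an alternative.

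Up to 8 called members per direction were named by size of change, with levels for the first 4, and up to 4 partner or amino acid response genes. Members given beyond that (Kars in zones, Farsa, and Aars in the chimaera libraries) were chosen after their values were seen. KO and control were compared by exact binomial 95% intervals, which cover counting error only. Depth per library ran from 20339933 to 62202828 UMIs, so that even the lowest member had 88 UMIs in a library. Doublets were not called; an alternative left out the top 5% of cells by UMIs, and another thinned each cell to 1000 UMIs. On simulated data the LZ against DZ fit recovered 100% of genes changed by a log2 of 0.5, with 14 false calls among 11486 genes, and the Day14 against Day7 fit 67%, and 99% at a log2 of 1, with 14 false calls among 11826 genes. Each share is of 100 genes and was not split by level. Recovery of low members such as Wars2 was not tested.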

Additional observations from a re-analysis of the deposited data

Results flagged for a closer look

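The LZ against DZ difference of Lars2 differed between the Day14 and Day7 libraries by a log2 of -0.22 (SE 0.05, adjusted p = 0.029, edgeR quasi-likelihood test of the interaction). The log2 ratio of LZ over DZ was -0.03 and 0.05 in the Day14 libraries, against 0.30 and 0.10 in the Day7 libraries. The interaction of the ribosomal RNA-like transcript Gm42418 was -0.24 in the same fit, and its part in the Lars2 result was not tested. The median interaction of all 36 members was -0.17, so the size of the Lars2 value is not particular to it. Lars2 was the only 1 of 36 members called, against 2.29% of all genes. Its call was lost with DESeq2 and with another scaling.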

How the results depend on the processing

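Of 1229 values of named members under alternatives, 1095 kept their direction and side of the threshold, 132 no longer passed and 2 changed sign, both with cells thinned to 1000 UMIs: Fars2 within S (LZ against DZ within S: Fars2, log2 0.14) and Rars2 in the Myc comparison (Myc UMI against no Myc UMI in LZ: Rars2, log2 -0.032). Thinning left fewer UMIs and fewer calls: 9 members higher, 3 lower and 4039 genes in LZ against DZ, 2 higher and 1543 genes within G1, 3 higher, 0 lower and 1265 genes within S, 2 higher, 0 lower and 567 genes within G2M, 8 higher, 4294 genes and a member median of 0.049 in S against G1, 4 higher and 4165 genes in G2M against G1, 0 higher, 0 lower, 215 genes and a median of 0.093 in the Myc comparison, a median of -0.051 in Day14 against Day7, 53 genes and a median of -0.11 for the interaction, and 120 genes past the KO against control size rule.

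DESeq2 called 5 members higher within G1, 1 lower within S, 1 lower within G2M and 1 lower in the Myc comparison. It gave a member median of -0.12 in Day14 against Day7, as did relative log expression factors, and for the interaction 0 members lower and 28 genes, with 0 members lower under those factors too. With the Day7 and Day14 libraries only, 4 members were lower in LZ against DZ, 5 higher within G1, 1 lower within S, and 8 higher and 1 lower within G2M. In cells called G1 only, the Myc comparison gave 1 member lower and 2349 genes, and Day14 against Day7 a median of -0.19. For the interaction, 4 members were lower with no filter on low counts (401 genes) and 4 without the 5% of cells with the most UMIs, and the mitochondrial median without Lars2 was -0.070. The KO against control size rule took 205 genes at a minimum of 5 CPM, and 385 genes and 1 member, Lars2, at an absolute log2 of 0.25. The cause of these changes was not tested, apart from the smaller number of UMIs or samples that thinning and leaving out libraries bring.

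With each library left out in turn, members called higher and lower ranged over 14 to 15 and 7 to 9 in LZ against DZ (6271 to 6564 genes, member median 0.01 to 0.09), 6 to 11 and 2 to 5 within G1 (3547 to 3902, 0.03 to 0.07), 14 to 16 and 1 to 3 within S (3321 to 3742, 0.14 to 0.20), and 11 to 16 and 1 to 3 within G2M (2319 to 2971, 0.27 to 0.36). They ranged over 15 to 17 and 3 to 6 in S against G1 (6644 to 6960, 0.08 to 0.15), 10 to 12 and 7 to 11 in G2M against G1 (6334 to 6646, -0.01 to 0.02), 14 to 17 and 1 to 2 in the Myc comparison (3028 to 3835, 0.18 to 0.24), and 8 to 11 and 14 to 17 in Day14 against Day7 (6290 to 8849, -0.22 to -0.10), where a group left with 1 library is assumed to vary like the other. Calls lost without at least 1 library were Farsa in LZ against DZ, Dars, Rars2, Yars, Qars, Wars and Nars within G1, Sars, Nars2, Farsa and Fars2 within S, Farsb, Dars, Farsa, Fars2, Iars and Lars within G2M, Pars2, Mars, Farsa and Hars2 in the Myc comparison, Farsb, Ears2, Lars2, Wars, Tars, Aars2 and Lars in S against G1, Dars, Lars2, Wars, Tars, Yars2 and Vars2 in G2M against G1, and Tars2, Fars2, Iars, Aars2 and Nars in Day14 against Day7.

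With the replicate number as a block, Day14 against Day7 gave 10 members higher, 16 lower, 8396 genes and a median of -0.09. The numbers are not taken as a pairing, since there are only 2 pairs. The correlation of 0.176 is the same for both pairs by construction, because each group has only 2 libraries. Wars2, with 88 to 264 UMIs per library, and the small clusters are limited most by depth.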
